A study of Mus musculus with 6 samples.

Results

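Tanycytes and astrocytes, both abundant glia of the mouse hypothalamus, were compared gene by gene within the same mice. Members were the cells that the authors labelled as tanycytes (4490 cells) or astrocytes (5909 cells), which together made up 10399 of the 20151 cells of the labelled libraries (51.6%). The hypothalami came from male ob/ob mice, a strain that lacks leptin and becomes obese and diabetic. Each mouse was 11 weeks old, was given 3 µg of FGF1 R50E, an altered form of fibroblast growth factor 1, into a cerebral ventricle, and was killed 5 days later. Every mouse used here had this treatment, so no value below is a treatment effect. Each library held 1 mouse, per the labels, and cells were present for mice 3, 4, 30 and 34, while the other 2 labelled mice were not analysed here. Tanycytes numbered 1604, 693, 851 and 1342 in mice 3, 4, 30 and 34, and astrocytes numbered 2498, 719, 509 and 2183.

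Tanycytes are radial cells that line the floor and lower walls of the third ventricle, with cell bodies in the ventricular wall and long processes that reach into the hypothalamus. They take up and convert thyroid hormone, form a barrier at the median eminence and stay close in origin to the ciliated ependymal cells beside them. Astrocytes of the hypothalamic parenchyma take up neurotransmitters, buffer potassium and water, supply lipids to neurons and are joined by gap junctions.

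Raw counts of UMIs (unique molecular identifiers, the tags by which single RNA molecules are counted) were summed per mouse and type, which gave 8 sums of 499682 to 2206005 UMIs. Levels are given as CPM, that is, UMIs of the gene per 1000000 UMIs of its sum. Differences are log2 fold changes of tanycytes minus astrocytes, with the standard error (SE), from the edgeR quasi-likelihood F test with mouse as a block. A gene was called where its log2 fold change lay beyond 1 or -1 with a Benjamini-Hochberg adjusted p under 0.05. The authors' labels can be expected to rest on the expression of the same cells. A call is therefore not independent evidence that the types differ.

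The cells of both types were sequenced thinly and not quite alike. The median tanycyte held 1143 UMIs of 670 genes and the median astrocyte 851 UMIs of 514 genes. Mitochondrial UMIs took a median of 12.2% in tanycytes and 14.9% in astrocytes, and ribosomal protein UMIs took 14.2% and 8.73%. Between 18 and 66 cell barcodes were shared by a pair of libraries, at most 1.07% of the smaller one. By a chi-square of their sums, mice 3 and 34 and mice 4 and 30 were the most alike (1.93 and 1.90 per degree of freedom in astrocytes, 2.72 and 2.87 in tanycytes, against up to 5.23 for other pairs), and no pair agreed within sampling noise.

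Of 10081 genes tested, 2138 were called (21.2%). Of these, 998 were higher in tanycytes (9.90% of the genes tested) and 1140 were higher in astrocytes (11.3%). The median log2 fold change over all genes tested was -0.03. In 2073 of the called genes the difference had the same direction in each of the 4 mice. The largest differences were more often on the tanycyte side: a fold of 16 or more was seen for 68 genes there (0.675%) and for 18 genes on the astrocyte side (0.179%). A mean of 100 CPM or more in the higher type was seen for 315 of the called astrocyte genes and 188 of the called tanycyte genes. Genes called higher in tanycytes took 11.53% of tanycyte UMIs and 3.07% of astrocyte UMIs, and genes called higher in astrocytes took 16.55% of astrocyte UMIs and 4.66% of tanycyte UMIs.

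**Figure D1:**
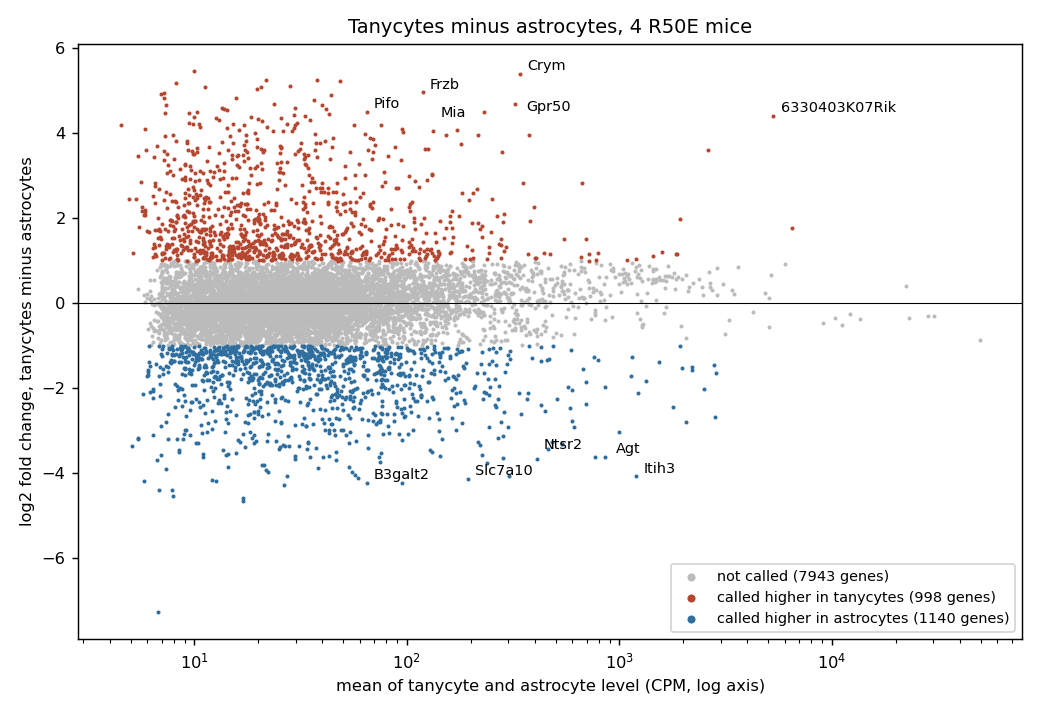
Each point is 1 of the 10081 genes tested, with the mean level of both types in CPM on a log axis and the log2 fold change of tanycytes minus astrocytes on the vertical axis; red and blue are the 998 and 1140 called genes and grey the others. The named genes at the edges include Crym at 5.40 and B3galt2 at -4.24, and 6330403K07Rik combines a high level with a log2 fold change of 4.41; the lowest point, Gm9881, had 0 UMIs in tanycytes and 75 in astrocytes, was singled out after its value was seen, and its fitted value is no bound.

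Markers of both types are given as a description, since calls in the same cells cannot check the labels. Of 15 tanycyte markers, 12 could be tested and 10 were called higher in tanycytes, with a median log2 fold change of 3.53. Some of them were higher in ependymal cells than in tanycytes, such as Vim (means of 787 and 507 CPM). Others, such as Crym (9.52 and 664 CPM), were not. Dio2, the deiodinase that activates thyroid hormone, was not called (0.93 ± 0.23 SE, edgeR adjusted p = 0.000799), with 17.2, 21.6, 37.9 and 30.8 CPM in tanycytes of mice 3, 4, 30 and 34 and 14.1, 10.3, 16 and 11 CPM in astrocytes. Without mouse 3 it was called, at 1.30. Ppp1r1b, a phosphatase inhibitor, was not called either (-0.70 ± 0.17 SE). Fndc3c1 and Adm had 7 and 6 UMIs in tanycytes and were not tested, and Sprr1a was listed at 0 in both types. Of 15 astrocyte markers, 14 were called higher in astrocytes, with a median of -2.12. The exception was Aldoc, a glycolytic aldolase, at -0.82 ± 0.09 SE. Gfap, the intermediate filament protein of astrocytes, was at 144, 391, 428 and 160 CPM in astrocytes of mice 3, 4, 30 and 34 and at 34.9, 63.5, 75.8 and 62.8 CPM in tanycytes. Its levels did not overlap between types.

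The tanycyte gene of largest fold change with 100 CPM or more was Crym, which encodes a cytosolic protein that binds thyroid hormone. Crym measured 688, 593, 881 and 495 CPM in tanycytes of mice 3, 4, 30 and 34, and 9.07, 18, 40 and 10.5 CPM in astrocytes. The lowest tanycyte sum was more than 10 times the highest astrocyte sum, and the log2 fold change was 5.40 ± 0.15 SE (edgeR adjusted p = 1.63e-25). Frzb, a secreted antagonist of Wnt ligands, followed with 267, 268, 243 and 138 CPM in tanycytes and 6.35, 1.28, 22 and 5.00 CPM in astrocytes (4.97 ± 0.20 SE). Gpr50, an orphan receptor related to the melatonin receptors, had 563 to 698 CPM in tanycytes and 11.0 to 58 CPM in astrocytes (4.69 ± 0.17 SE). For Crym, Frzb and Gpr50 the highest astrocyte level was that of mouse 30.

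Pifo, which acts at the primary cilium, was at 140, 133, 100 and 120 CPM in tanycytes and at 4.53, 8.99, 8.01 and 4.00 CPM in astrocytes (4.51 ± 0.19 SE). Fam183b (4.07 ± 0.15 SE) and Cfap126 (3.96 ± 0.17 SE) encode further ciliary proteins. Mia, a small secreted protein, reached 4.50 ± 0.17 SE and Calml4, a calmodulin-like protein, 4.20 ± 0.21 SE. These 5 genes were also found in ependymal cells, at 228 CPM for Pifo, 761 for Fam183b, 529 for Cfap126, 574 for Mia and 501 for Calml4 (means of 4 mice).

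The other tanycyte genes of largest fold change were of several kinds. Lhx2, a LIM homeodomain factor of the developing eye and hypothalamus, was at 139, 226, 165 and 174 CPM in tanycytes and at 7.25, 11.6, 30 and 5.00 CPM in astrocytes (4.09 ± 0.20 SE). Fzd5, a Wnt receptor, was at 4.19 ± 0.18 SE. Anxa2, a membrane-binding annexin, was at 4.05 ± 0.18 SE and Tagln2, which binds actin, at 4.04 ± 0.17 SE. Vcan, the proteoglycan versican, was at 3.98 ± 0.18 SE and Col23a1, a transmembrane collagen, at 3.96 ± 0.17 SE. In each of these 6 genes the 4 tanycyte sums lay above the 4 astrocyte sums.

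By difference in level rather than fold, the leading tanycyte gene was 6330403K07Rik, a gene without an assigned function. It measured 10471, 9470, 9345 and 11134 CPM in tanycytes of mice 3, 4, 30 and 34 and 361, 573, 668 and 350.4 CPM in astrocytes, and its log2 fold change was 4.41 ± 0.12 SE (edgeR adjusted p = 4.94e-26). About 1 UMI in 100 of the tanycyte sums thus came from this gene. Nnat, an imprinted gene for a membrane proteolipid, followed with a mean of 10027 CPM in tanycytes and 2913 in astrocytes (1.77 ± 0.06 SE). S100a6, a calcium-binding protein, had 4844 ± 746 CPM (SD, n = 4) against 396 ± 76.7 (3.62 ± 0.10 SE). Prdx6, a peroxidase with phospholipase activity, had 3106 ± 290.3 against 760.1 ± 43.7 CPM (1.98 ± 0.06 SE). Ptn, the heparin-binding growth factor pleiotrophin, and Meg3, an imprinted long non-coding RNA, were at 1.14 ± 0.06 SE and 2.82 ± 0.10 SE. Ubb (1.15), Rpl10 (1.2), Ftl1 (1.10) and Rps9 (1.04) completed the 10 genes. The last 4 have near-identical copies or processed pseudogenes in the genome, so their counts are uncertain.

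On the astrocyte side, the largest fold change among genes with 100 CPM or more was that of B3galt2, a galactosyltransferase, with 130, 95.1, 140 and 126 CPM in astrocytes of mice 3, 4, 30 and 34 and 4.42, 6.81, 2.11 and 11.8 CPM in tanycytes (-4.24 ± 0.20 SE). Without mouse 34 it was at -4.83. Slc7a10, a transporter of small neutral amino acids such as D-serine, was at 427, 407, 264 and 365 CPM in astrocytes and at 22.1, 32.9, 13.7 and 20.2 CPM in tanycytes (-4.14 ± 0.12 SE, edgeR adjusted p = 2.61e-24). Atp13a4, a P-type ATPase, was at -4.23 ± 0.16 SE, and Dbx2, a homeodomain factor, at -4.13 ± 0.17 SE. None of these 4 genes overlapped between types.

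Itih3 was high both by fold and by level. It encodes a heavy chain that is linked to hyaluronan in the extracellular matrix, and it measured 2692, 1870, 1787 and 2710 CPM in astrocytes and 137, 139.5, 137 and 142 CPM in tanycytes (-4.08 ± 0.09 SE). The tanycyte sums thus differed by a few CPM while the astrocyte sums of mice 3 and 34 stood above those of mice 4 and 30. Gjb6, the gap junction protein connexin 30, had 508 to 610.3 CPM in astrocytes and 25.2 to 50.6 CPM in tanycytes (-4.07 ± 0.11 SE). Agt, the precursor of angiotensin, was at 1581 ± 104 CPM (SD, n = 4) against 133 ± 12.7 (-3.62 ± 0.08 SE). Ntsr2, a neurotensin receptor, was at 1408 ± 113 against 118 ± 14 CPM (-3.61 ± 0.08 SE). Ednrb, an endothelin receptor, was at -3.68 ± 0.09 SE, Tril, a partner of Toll-like receptors, at -3.77 ± 0.11 SE and Htra1, a secreted protease, at -3.64 ± 0.11 SE. Sfrp5 (-4.04), AI464131 (-3.97), Nrarp (-3.75) and Daam2 (-3.63) completed the 15 genes.

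The astrocyte gene of largest difference in level was Sparcl1, a secreted protein that promotes synapses, with 4860 ± 266 CPM in astrocytes (SD, n = 4) and 783 ± 71.5 in tanycytes (-2.68 ± 0.06 SE). Slc6a11, a GABA transporter, was at 3590 ± 149 against 529.9 ± 25.9 CPM (-2.80 ± 0.06 SE). Clu, an apolipoprotein, was at -2.44 ± 0.07 SE, and the glutamate transporters Slc1a2 and Slc1a3 were at -1.45 ± 0.06 SE and -1.50 ± 0.07 SE. Sparc (-1.65), Cd81 (-1.53), Ndrg2 (-1.57) and Itih3 were the other genes of this group. Slc1a2 and Slc1a3 were at 1525 and 1183 CPM in tanycytes, against 918 and 433 CPM in oligodendrocytes, 994 and 514 CPM in microglia and 1493 and 604 CPM in oligodendrocyte precursors (means of 4 mice), and how much of the tanycyte level is free RNA was not tested.

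**Figure D2:**
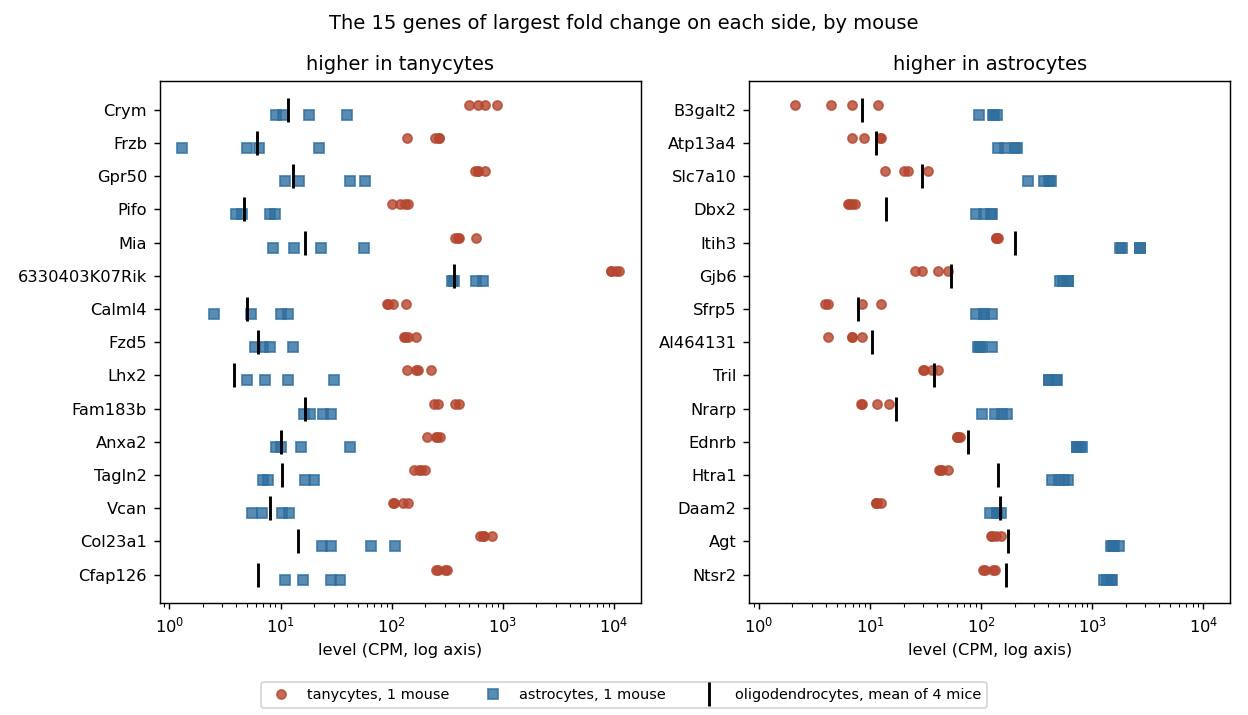
Levels in CPM (log axis) of the 15 genes of largest fold change on each side, 1 point per mouse for tanycytes (red circles) and astrocytes (blue squares), with the oligodendrocyte mean of 4 mice as a black tick. No gene overlaps between the types, which can be expected of genes picked for a large fold and 1 direction in every mouse. The tanycyte points of the right panel lie at or left of the tick for most genes. Itih3, for example, had a mean of 139 CPM in tanycytes against 202 CPM in oligodendrocytes. The astrocyte means of the left panel lie right of the tick.

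How low the low side was differed between the groups of genes. For all 15 astrocyte genes of largest fold change, the mean tanycyte level was at or below the mean level in oligodendrocytes. That type should lack most of them, with Daam2 and Htra1 as exceptions (149 and 141 CPM there). Against endothelial cells some genes went the other way. Htra1 was at 44.6 CPM in tanycytes and 33.7 in endothelial cells, and B3galt2 at 6.28 and 5.13 CPM. Agt, for example, had 133 CPM in tanycytes, 173 in oligodendrocytes, 189 in microglia and 167 in endothelial cells. For the 15 tanycyte genes, the mean astrocyte level was at or below that of oligodendrocytes in 0 cases, although it was near it in many: Crym had 19.4 CPM in astrocytes and 11.8 in oligodendrocytes, and Col23a1 had 55.9 and 14.4. RNA released from broken cells enters droplets of every type in such data, so a low level shared by unrelated types may be background. Its part in the size of the fold changes was not tested.

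The share of cells with a UMI was compared after thinning each cell to 500 UMIs, which left out 0 tanycytes and 0 astrocytes, with oligodendrocytes (median depth 1136 UMIs) as the type that should lack the genes. Crym had a UMI in 22.8% ± 4.54 of tanycytes (SD, n = 4 mice), in 0.865% ± 0.615 of astrocytes and in 0.495% ± 0.440 of oligodendrocytes. Without thinning, the share in tanycytes was 39.4%. Gpr50 had a UMI in 24.2% of tanycytes and 1.39% of astrocytes, and Frzb in 9.14% and 0.361%. Itih3 had a UMI in 62.0% ± 9.03 of astrocytes, 6.72% ± 0.360 of tanycytes and 8.91% ± 0.916 of oligodendrocytes. For B3galt2, Atp13a4, Slc7a10 and Dbx2, the astrocyte shares were 5.82%, 8.47%, 16.4% and 5.44% and the tanycyte shares 0.331%, 0.456%, 1.18% and 0.384%. The mean tanycyte shares of Itih3 and of these 4 genes were below those of oligodendrocytes. Itih3 was below in each mouse, while the other genes were not. B3galt2, for example, had a UMI in 0.680% of tanycytes and 0.341% of oligodendrocytes of mouse 34. How much of these tanycyte shares is background was not tested.

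**Figure D3:**
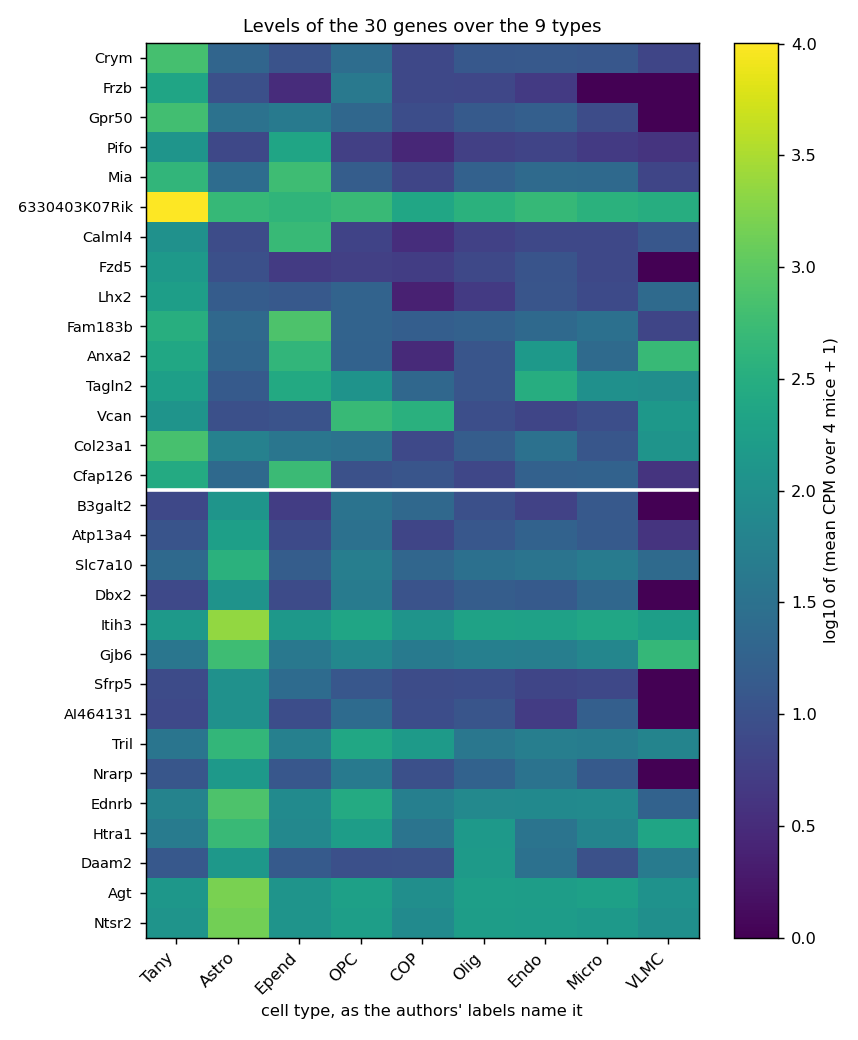
Mean level over 4 mice of the same 30 genes in the authors' 9 types, as log10 of CPM plus 1, with the tanycyte genes above the white line; each row is to be read across types. Pifo, Mia, Calml4, Fam183b, Anxa2, Tagln2 and Cfap126 are higher in ependymal cells (Epend) than in tanycytes (Tany), for example 501 against 105 CPM for Calml4, while Crym, Frzb, Gpr50 and 6330403K07Rik are highest in tanycytes.

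Ependymal markers were the list with the highest median on the tanycyte side. Of 11 tested, 10 were called higher in tanycytes and 0 higher in astrocytes, with a median log2 fold change of 3.86. Their summed level ran from 1765 to 2107 CPM in tanycytes, from 295 to 347 CPM in astrocytes and from 8574 to 9918 CPM in ependymal cells, and no marker of the list was at 0 in tanycytes. The members differed in how near tanycytes came to ependymal cells. Mia reached 76.2% of the ependymal level, Pifo 54.1%, Cfap126 53.4% and Dynlrb2, a dynein light chain, 41.7%. Foxj1, the master factor of motile cilia, reached 11.9% (84.7 against 714 CPM), and Tm4sf1 and Ccdc153 reached 3.51% and 0.878%. Rarres2, which encodes chemerin, was not called (0.72 ± 0.09 SE). Whether ependymal RNA or cells take a part in these tanycyte levels was not tested.

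Markers of the remaining types had mostly negative values, apart from the endothelial ones. Of 10 neuron markers and 9 microglia markers, 0 were called by edgeR in either direction. All 9 microglia markers had negative values, with a median of -0.70, as did 7 of the 10 neuron markers, with a median of -0.30. The 9 oligodendrocyte markers were negative too (median -0.51), and Cnp was called higher in astrocytes (-1.32 ± 0.09 SE). The summed oligodendrocyte markers were at 2021 to 3559 CPM in tanycytes and 3065 to 5135 CPM in astrocytes, against 51982 to 61339 CPM in oligodendrocytes. Of 5 markers of oligodendrocyte precursors, 4 had negative values (median -0.97), and the transcription factors Olig1 (-1.98 ± 0.13 SE) and Olig2 (-2.62 ± 0.27 SE) were called higher in astrocytes. Of 4 endothelial markers, Flt1, a receptor for vascular endothelial growth factor, was called higher in tanycytes (111 ± 10.8 against 15.8 ± 7.75 CPM, 3.02 ± 0.18 SE), as was Pltp (1.03), a call that was lost without mouse 3 or 34. Of 4 markers of vascular leptomeningeal cells, 3 were called higher in astrocytes (median -1.73), with Col1a1 resting on 4 UMIs in tanycytes and 91 in astrocytes.

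The gene lists of functions differed widely in the side they favoured. For comparison, 21.2% of all genes tested were called and their median was -0.03.

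**Figure D4:**
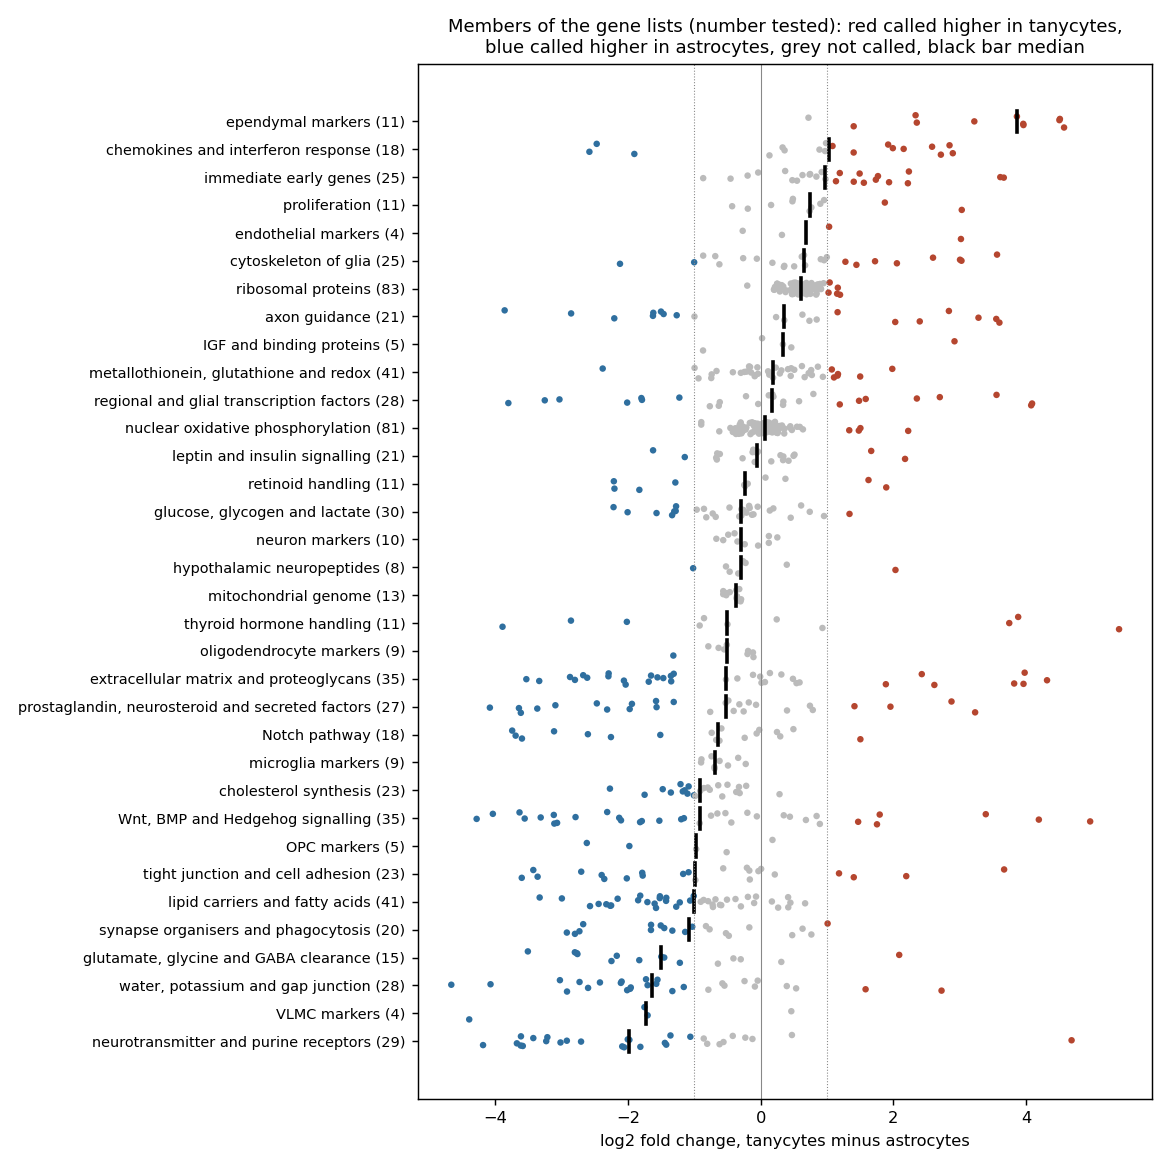
Log2 fold change of each tested member of the gene lists, ordered by the list median (black bar), with called genes in red (tanycytes) or blue (astrocytes). Ependymal markers, with a median of 3.86, stand at the top, and neurotransmitter and purine receptors, with a median of -1.98, at the bottom; ribosomal protein genes form a narrow band around 0.61, to the right of 0 but mostly below the limit of 1.

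Neurotransmitter handling lay on the astrocyte side. Of 15 genes for clearance of glutamate, glycine and GABA, 10 were called higher in astrocytes and 1 higher in tanycytes, with a median of -1.50. The glycine transporter Slc6a9 was at 226, 265, 222 and 250.4 CPM in astrocytes of mice 3, 4, 30 and 34 and at 22.1, 34, 16.9 and 16.8 CPM in tanycytes (-3.51 ± 0.14 SE). The glutamine transporter Slc38a3 was at -2.76 ± 0.14 SE and Glul, which makes glutamine from glutamate, at -1.83 ± 0.07 SE. The exception was Slc38a1, another glutamine transporter, with 453 ± 46.5 CPM in tanycytes and 119 ± 53 in astrocytes (2.09 ± 0.14 SE). Of 29 neurotransmitter and purine receptors, 20 were called higher in astrocytes, and Gpr50 was called higher in tanycytes. Adra2a, an adrenergic receptor, was at -3.62 ± 0.21 SE and Ednrb at -3.68 ± 0.09 SE. The adrenergic receptor Adrb1 had 3 UMIs in tanycytes and 61 in astrocytes, too few for a fold to be given.

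Water, potassium and gap junction genes split along the same line, with 18 of 28 called higher in astrocytes, 2 higher in tanycytes and a median of -1.64. Slc4a4, a sodium bicarbonate cotransporter, had 1773 ± 146 CPM in astrocytes (SD, n = 4) and 224 ± 21.5 in tanycytes (-3.03 ± 0.07 SE). Aqp4, the water channel of astrocyte end-feet, was at 414, 559, 422 and 312 CPM in astrocytes and at 48.7, 57.9, 87.4 and 43.1 CPM in tanycytes (-2.92 ± 0.12 SE), and was at 362 CPM in ependymal cells. The potassium channel Kcnj10 was at -2.11 ± 0.09 SE. Gjb2, connexin 26, had the largest fitted value of the list at -4.66 ± 0.37 SE, but rested on 7 UMIs in tanycytes and was at -4.01 without mouse 3. Atp1b1, an accessory subunit of the sodium pump, was among the 2 genes called higher in tanycytes.

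Lipid genes were called on the astrocyte side or not at all. Of 41 lipid carrier and fatty acid genes, 21 were called higher in astrocytes and 0 higher in tanycytes (median -1.01). Of 23 cholesterol synthesis genes, 10 and 0 were called (median -0.91). Pla2g7, a lipoprotein-associated phospholipase, was at 399 ± 48.1 CPM in astrocytes and 40.3 ± 9.74 in tanycytes (-3.33 ± 0.11 SE). Lcat, which esterifies cholesterol on lipoproteins, was at -3.0 ± 0.19 SE and Acsbg1, an acyl-CoA synthetase, at -2.57 ± 0.09 SE. Apoe, the main lipid carrier of the brain, was not called at -0.73 ± 0.06 SE, and had 2390 CPM in tanycytes and 3855 in astrocytes. In the cholesterol pathway, Mvd was at -2.27 ± 0.24 SE, Dhcr7 at -1.75 ± 0.20 SE and Msmo1 at -1.48 ± 0.11 SE.

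Glucose handling differed less. Of 30 genes for glucose, glycogen and lactate, 7 were called higher in astrocytes and 1 higher in tanycytes, with a median of -0.29. Pygm, a glycogen phosphorylase, was at 75.9 ± 8.73 CPM in astrocytes and 17.9 ± 6.54 in tanycytes (-2.22 ± 0.16 SE), Pfkfb3, a regulator of glycolysis, at -2.01 ± 0.19 SE and Pcx, pyruvate carboxylase, at -1.57 ± 0.14 SE. Ldha, a lactate dehydrogenase subunit, was the tanycyte gene, with 281, 279, 298 and 235 CPM in tanycytes and 87.9, 113, 158 and 87 CPM in astrocytes (1.34 ± 0.11 SE). In leptin and insulin signalling, 2 of 21 genes were called on each side. Grb10, an adaptor that restrains the insulin receptor, was higher in tanycytes (2.18 ± 0.28 SE), and Irs1, an adaptor of the insulin receptor, was among the genes higher in astrocytes (-1.14 ± 0.22 SE). Socs3, an inhibitor of cytokine and leptin signalling, was at 40.8, 88.5, 96.9 and 147 CPM in tanycytes and at 33.5, 28.3, 22 and 20 CPM in astrocytes (1.67 ± 0.22 SE). Its value was 2.38 without mouse 3 and 1.02 without mouse 34.

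Thyroid hormone genes were divided, with 3 of 11 called on each side. The tanycyte genes included Crym and the carrier Ttr. Ttr was uneven over mice, with 281, 4.54, 37.9 and 15.7 CPM in tanycytes of mice 3, 4, 30 and 34, and its log2 fold change of 3.88 was 1.14 without mouse 3 (edgeR adjusted p = 0.0111). On the astrocyte side were Hr, a corepressor of thyroid hormone receptors (71.8 ± 20.6 against 4.67 ± 2.27 CPM, -3.89 ± 0.21 SE), Slco1c1, a thyroxine transporter (-2.86 ± 0.21 SE), and Slc7a5 (-2.02). Of 11 retinoid genes, Rara, a retinoic acid receptor, was called higher in tanycytes (1.89 ± 0.25 SE) with Rlbp1 (1.62), and Rdh5 (-2.21 ± 0.15 SE), Dhrs3 (-2.20 ± 0.16 SE), Aldh1a1 (-1.83 ± 0.16 SE) and Rdh11 (-1.29), enzymes that convert retinoids, were higher in astrocytes.

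Regional transcription factors separated the types in both directions. Of 28 tested, 8 were called higher in tanycytes and 7 higher in astrocytes. On the tanycyte side, besides Lhx2, were Fezf2, a forebrain zinc finger factor, with 34.9, 38.6, 12.6 and 35.3 CPM in tanycytes and 1.36, 3.85, 2.00 and 1.50 CPM in astrocytes (4.08 ± 0.32 SE), and Tbx3, a T-box factor of the ventral hypothalamus (3.55 ± 0.28 SE). Six3 (2.70 ± 0.14 SE) and Rax (2.35 ± 0.18 SE) are homeodomain factors of the eye field and hypothalamus. On the astrocyte side were Meis1 (-3.80 ± 0.27 SE), Nkx2-2 (-3.26 ± 0.27 SE) and Pax6 (-3.03 ± 0.35 SE). Sox9, a factor shared by glia, was at 723 ± 101 CPM in tanycytes and 641 ± 69.6 in astrocytes (0.12 ± 0.07 SE, edgeR adjusted p = 0.166).

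In the Notch pathway, by which neighbouring cells signal through membrane ligands and receptors, 7 of 18 genes were called higher in astrocytes and 1 higher in tanycytes (median -0.65). The astrocyte genes included the receptor Notch3 (-3.12 ± 0.27 SE), the ligand Jag1 (-1.51), the glycosyltransferase Lfng (-2.61), and the target genes Nrarp (-3.75 ± 0.16 SE), Heyl (-3.69 ± 0.20 SE), Hes5 (-3.60 ± 0.19 SE) and Hey1 (-2.26). Notch3 had a higher mean in endothelial cells (177 CPM) than in astrocytes (34.6 CPM). Hes5 had 73.4, 84.8, 82 and 78 CPM in astrocytes and 5.41, 5.67, 5.27 and 8.96 CPM in tanycytes. Hes1, another target gene of the family, went the other way, with 476, 1665, 803 and 1322 CPM in tanycytes and 276, 389, 276 and 387 CPM in astrocytes (1.50 ± 0.11 SE). The tanycyte level of Hes1 thus varied more than 3-fold over mice while its astrocyte level did not.

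The promoter of Hes5 is shown because it holds the word that RBPJ, the DNA-binding protein of the pathway, is known for. The word TGGGAA was searched on both strands (TTCCCA on the other) in the 250 bases before the start of 32851 RefSeq promoters of GRCm38.p6, of which 21.6% held it. Of the 8 called Notch genes, 5 had a promoter in the table, and Hes5 and Lfng held the word. The sequence of Hes5 lies at chr4:154960673-154960922 on the + strand, the word begins 226 and 82 bases before the start of the gene, and it is given in capitals.
Hes5: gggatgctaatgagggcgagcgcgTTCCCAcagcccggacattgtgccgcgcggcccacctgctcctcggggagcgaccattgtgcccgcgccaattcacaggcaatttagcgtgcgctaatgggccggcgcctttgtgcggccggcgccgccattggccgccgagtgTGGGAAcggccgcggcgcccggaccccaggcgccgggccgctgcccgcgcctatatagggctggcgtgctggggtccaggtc

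In Wnt, BMP and Hedgehog signalling, 17 of 35 genes were called higher in astrocytes and 6 higher in tanycytes (median -0.92). The tanycyte genes were Frzb, Fzd5, Sfrp1 (3.39 ± 0.44 SE), Rspo3 (1.79), Axin2 (1.75) and Dkk3 (1.47), which encode secreted or membrane proteins of Wnt signalling except for Axin2, a target gene and inhibitor of the pathway. The astrocyte genes included Gli1, Gli2 and Ptch1 of the Hedgehog pathway. Gli1, a target gene of that pathway, had 58.9, 41.1, 50 and 50 CPM in astrocytes and 1.97, 3.40, 3.16 and 2.80 CPM in tanycytes (-4.28 ± 0.25 SE), Gli2 was at -3.56 ± 0.37 SE and the receptor Ptch1 at -3.12. The BMP genes on that side included the ligand Bmp7 (-3.11), the receptor Bmpr1b (-3.07) and the target genes Id1 (-2.13), Id2 (-3.32) and Id3 (-2.79 ± 0.12 SE). The word GACCACCCA, bound by Gli factors, was in 0 of the 14 called members with a promoter in the table and in 0.225% of all promoters. A sterol response word, TCACNCCAC, was in 0 of 7 called cholesterol genes and in 1.05% of all promoters.

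Of 35 matrix and proteoglycan genes, 17 were called higher in astrocytes and 7 higher in tanycytes. The tanycyte genes were led by the glypican Gpc3 (65.5 ± 16.5 against 4.11 ± 3.07 CPM, 4.32 ± 0.25 SE), Vcan, Col23a1 and Col25a1 (3.82 ± 0.22 SE). The astrocyte genes included the glypican Gpc5 (-2.80 ± 0.15 SE), the lecticans Ncan (-2.62) and Bcan (-2.04), and Lama2 (-3.53). Of 23 tight junction and adhesion genes, the tight junction protein Ocln was called higher in tanycytes (36.5 ± 6.57 against 3.05 ± 0.926 CPM, 3.67 ± 0.27 SE) with Cgnl1 (2.19 ± 0.42 SE), Cdh2 (1.40) and Jam3 (1.18). Ocln had higher means in ependymal cells (128 CPM) and endothelial cells (171 CPM). In astrocytes 11 of the 23 genes were called. Among them were the adhesion proteins Ntm (-3.43 ± 0.09 SE), Cdh10 (-3.60 ± 0.23 SE) and Cdh20 (-3.36 ± 0.22 SE). In axon guidance 7 of 21 genes were called higher in tanycytes, such as Efna5 (3.60 ± 0.18 SE), Ephb1 (3.55 ± 0.21 SE), Nrp2 (3.28 ± 0.18 SE) and Slit2 (2.84 ± 0.11 SE), and 8 higher in astrocytes, such as Slitrk2 (-3.86 ± 0.18 SE) and Nrp1 (-2.21). Of 20 genes for synapse organisation and phagocytosis, 11 were called higher in astrocytes, among them Megf10, an engulfment receptor (-2.73 ± 0.19 SE), and Tgfb2, a growth factor, was called higher in tanycytes (1.01 ± 0.14 SE), a gene named after its value was seen.

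Cytoskeletal genes favoured tanycytes, with 8 of 25 called there and 2 in astrocytes (median 0.65). Vim, the intermediate filament protein of radial glia, had 513, 564, 476 and 475 CPM in tanycytes and 25.8, 83.5, 66 and 28 CPM in astrocytes (3.56 ± 0.15 SE). Nes (3.03 ± 0.23 SE) and Synm (3.00 ± 0.17 SE) encode further intermediate filament proteins, and Tppp3 (2.60 ± 0.11 SE) a tubulin-binding protein. Vim, Synm and Tppp3 had higher means in ependymal cells (787, 308 and 1598 CPM) than in tanycytes (507, 100 and 352 CPM). Nes was near equal (56.6 and 60.0 CPM). Gfap was the filament gene on the other side. Among secreted factors and neurosteroid genes, 12 of 27 were called higher in astrocytes and 4 higher in tanycytes, the latter being Btc, a ligand of the EGF receptor (3.23 ± 0.25 SE), Tspo, a cholesterol-binding mitochondrial protein (2.88 ± 0.13 SE), Nucb2, the precursor of nesfatin (1.96 ± 0.23 SE), and Pdgfa (1.41). Hsd11b1, which regenerates active glucocorticoid, was at -3.37 ± 0.20 SE. The insulin-like growth factor binding protein Igfbp4 was called higher in tanycytes (2.92 ± 0.35 SE), 1 of 5 genes of that family tested.

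Of 11 proliferation genes, Ccnd2, a G1 cyclin, was at 248, 208, 241 and 236 CPM in tanycytes and at 24, 39.8, 20 and 29 CPM in astrocytes (3.03 ± 0.14 SE), and Mcm6, a helicase subunit, was at 1.87 ± 0.33 SE. No other member was called, and the mitotic genes Mki67 and Top2a were too low to be tested. Of 8 neuropeptide genes, Ghrh was called higher in tanycytes (87 UMIs against 20, 2.03 ± 0.34 SE). Npy was called higher in astrocytes (-1.02 ± 0.16 SE), a call that was lost without mouse 4. Both had higher means in ependymal cells (41.8 and 107 CPM) than in tanycytes (15.3 and 26.4 CPM) or astrocytes (2.79 and 52.4 CPM). Npy was also found in oligodendrocytes (33.0 CPM), microglia (24.1 CPM) and endothelial cells (21.6 CPM). How much of these levels is free RNA was not tested. Of 41 redox genes, 6 were called higher in tanycytes, such as Prdx6 and Gpx1 (1.50 ± 0.11 SE), and Sepp1, which carries selenium, was called higher in astrocytes (-2.38 ± 0.08 SE). The metallothioneins Mt1 (-0.25 ± 0.05 SE) and Mt3 (0.11 ± 0.06 SE) were near equal in level. Of the 38 FGF and MAPK genes tested, which are not described here, 2 and 7 were called on the tanycyte and the astrocyte side.

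Ribosomal protein genes and genes of the mitochondrial genome differed by small amounts and in opposite directions. Of 83 ribosomal protein genes, 82 had a positive log2 fold change and 5 were called higher in tanycytes (6.02%, below the 21.2% of all genes), with a median of 0.61. The 13 genes of the mitochondrial genome had negative values, from -0.57 to -0.30, and 0 were called by edgeR. Of 81 nuclear genes of oxidative phosphorylation, 48 had positive and 33 negative values, 4 were called higher in tanycytes and the median was 0.06. These 4 are subunits made by particular tissues or conditions rather than by every cell, namely Cox6a2 (2.22 ± 0.20 SE), Ndufa4l2 (1.50 ± 0.40 SE), Cox6b2 (1.48 ± 0.15 SE) and Cox7a1 (1.33 ± 0.24 SE). Cox6a2 had 52.6, 63.5, 46.4 and 46.5 CPM in tanycytes and 7.25, 19.3, 16 and 9 CPM in astrocytes.

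Immediate early genes, which are switched on within minutes by many stimuli and by tissue dissociation, favoured tanycytes. Of 25 tested, 12 were called higher in tanycytes and 0 higher in astrocytes, with a median of 0.98. The median was 0.17 in mouse 3 and between 1.12 and 1.32 in the others. The heat shock gene Hspa1a had 154, 89.6, 106 and 289 CPM in tanycytes and 10.9, 14.1, 22 and 14.5 CPM in astrocytes (3.66 ± 0.18 SE). It shares reads with its near-identical copy Hspa1b (3.61 ± 0.33 SE, and 2.84 without mouse 34), so both values are uncertain. Zfp36, which destabilises messenger RNA, was at 2.23 ± 0.20 SE and 1.65 without mouse 34, and Atf3, a stress-induced factor, at 2.22 ± 0.30 SE and 1.51 without mouse 34. Fos (0.48), Jun (0.63) and Egr1 (0.55) were not called. The part of dissociation in these values was not tested.

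Of 18 interferon response genes and chemokines, 9 were called higher in tanycytes and 3 higher in astrocytes (median 1.03), and mouse 30 stood apart. Cxcl10, an interferon-induced chemokine, was at 9.34, 3.40, 855 and 12.9 CPM in tanycytes of mice 3, 4, 30 and 34 and at 1.81, 2.57, 104 and 1.50 CPM in astrocytes. Its call (2.90 ± 0.20 SE) rests on mouse 30, without which it was too low to be tested. Isg15, an interferon-induced ubiquitin-like protein, was at 18.2, 26.1, 182 and 33.1 CPM in tanycytes and at 3.63, 5.14, 20 and 3.50 CPM in astrocytes. Isg15 was at 2.85 ± 0.23 SE, and at 2.65 without mouse 30. Bst2, the antiviral protein tetherin, had 133, 109, 219 and 148 CPM against 18.6, 12.8, 48 and 19.5 CPM (2.72 ± 0.14 SE, and 2.86 without mouse 30). Ifitm3 (2.58 ± 0.12 SE), Ifit1 (2.15 ± 0.17 SE) and Ifit3 (1.99 ± 0.17 SE) were called as well. These 6 genes had their highest level in mouse 30 in both types, and in each of the 4 mice the tanycyte level of Isg15 and Bst2 was above the astrocyte level.

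The promoters of Isg15, Bst2 and Ifit3 are shown because these genes were higher in tanycytes of each mouse and hold the core of the interferon-stimulated response element. The word, GAAA followed by any 2 bases and GAAA again, searched on both strands, was found in the 250 bases before the start of 2.98% of all promoters in the table. Of 12 called genes of the list, 11 had a promoter there and 6 held the word, among them Cxcl14, which was called higher in astrocytes. The word overlaps itself in Isg15 and Bst2. The coordinates in GRCm38.p6 are chr4:156200819-156201068 on the - strand for Isg15, chr8:71537473-71537722 on the - strand for Bst2 and chr19:34583279-34583528 on the + strand for Ifit3. The word is in capitals, each sequence ends at the base before the start of the gene, and a match is a description of the sequence.
Isg15: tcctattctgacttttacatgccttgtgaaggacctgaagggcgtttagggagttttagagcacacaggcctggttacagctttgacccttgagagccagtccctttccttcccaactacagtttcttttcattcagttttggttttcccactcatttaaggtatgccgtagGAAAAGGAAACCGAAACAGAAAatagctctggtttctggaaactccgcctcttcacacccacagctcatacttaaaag
Bst2: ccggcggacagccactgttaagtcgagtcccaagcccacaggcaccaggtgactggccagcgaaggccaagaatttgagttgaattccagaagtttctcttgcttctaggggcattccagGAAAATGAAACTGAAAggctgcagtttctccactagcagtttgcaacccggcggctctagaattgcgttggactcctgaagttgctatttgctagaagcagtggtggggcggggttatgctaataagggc
Ifit3: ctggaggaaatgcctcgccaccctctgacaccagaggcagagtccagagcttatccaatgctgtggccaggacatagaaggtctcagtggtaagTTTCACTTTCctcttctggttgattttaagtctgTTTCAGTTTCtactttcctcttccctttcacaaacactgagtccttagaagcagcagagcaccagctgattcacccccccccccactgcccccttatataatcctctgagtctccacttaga

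Members of some gene families took opposite sides. Of 21 pairs of related genes, 19 had both members tested. In 3 of them the members were called in opposite directions, in 5 both were called higher in astrocytes, in 6 a single member was called and in 5 neither. The accessory subunits of the sodium pump were divided in this way, with Atp1b1 at 129 CPM in tanycytes and 47.2 CPM in astrocytes (1.58 ± 0.14 SE) and Atp1b2 at 359 and 1354 CPM (-1.97 ± 0.08 SE). Hes1 and Hes5 were described above, and Ndrg1 (1.67 ± 0.15 SE) and Ndrg2 (-1.57 ± 0.06 SE), which belong to a stress-responsive family, were the third pair.

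Other pairs differed without opposite calls. Ldha (1.34) and Ldhb (-0.72 ± 0.08 SE) had opposite signs, as did S100a1 (0.94 ± 0.07 SE) and S100b (-1.02 ± 0.08 SE), and Aldoa (0.45 ± 0.08 SE) and Aldoc (-0.82). The call of S100b was lost without mouse 4, at -1.0, and Aldoc was called without mouse 30, at -1.01. Among the peroxiredoxins, Prdx6 was called and Prdx1 was not (0.31 ± 0.08 SE), and Id3 was called while Id4 was not (0.44 ± 0.11 SE). Both members were called higher in astrocytes for Acsl3 and Acsl6 (-2.27 and -2.25), Slc1a2 and Slc1a3, Gja1 and Gjb6, Sparc and Sparcl1, and Scd1 and Scd2 (-1.52 and -1.01), although the call of Scd2 was lost without mouse 30 or mouse 4.

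**Figure D5:**
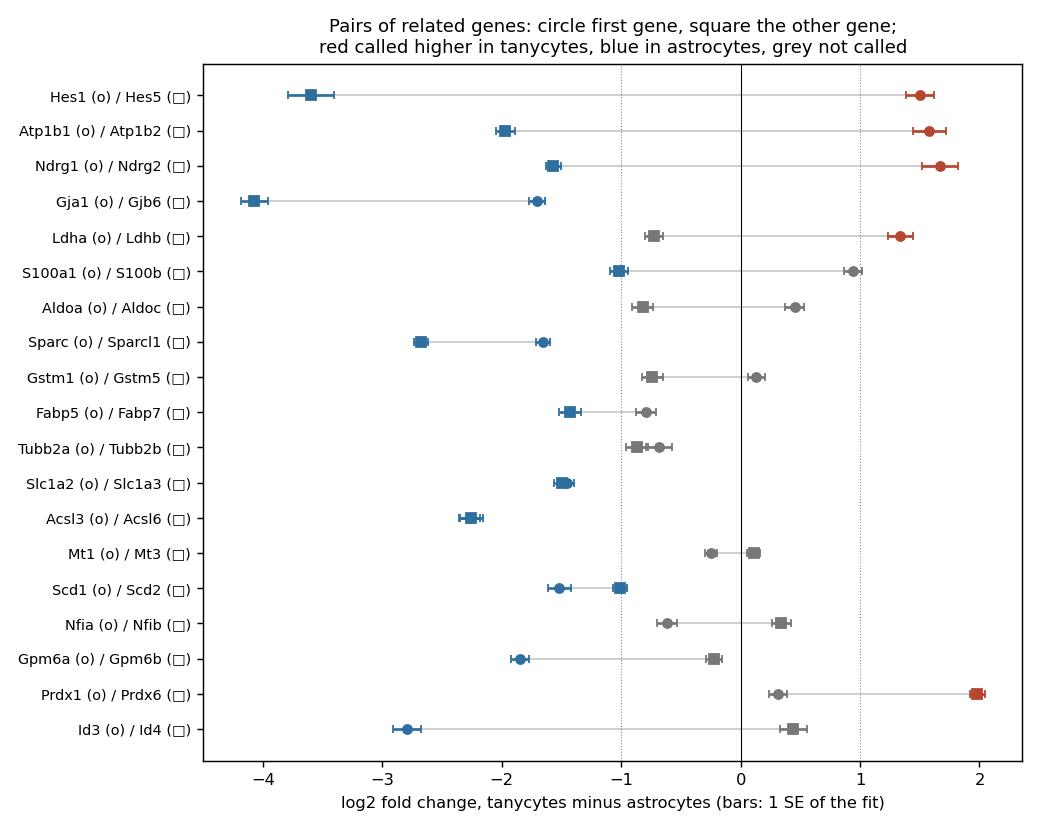
Log2 fold change of tanycytes minus astrocytes, with bars of 1 SE, for the 19 pairs with both members tested; circles are the first gene of each pair, squares the other, red and blue mark calls on the tanycyte and astrocyte side and dotted lines the limits of 1 and -1. The pairs Hes1 and Hes5, Atp1b1 and Atp1b2, and Ndrg1 and Ndrg2 lie beyond both limits, for example Atp1b1 at 1.58 and Atp1b2 at -1.97.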

How the data were processed

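The authors deposited raw UMI counts per gene and cell, whole numbers made with Cell Ranger 1.2 per the submitters' processing notes, beside their cell type labels. Builds are listed there without a role, and how the types were labelled is not given in the sources used here. The sums over genes equalled the UMI totals the authors listed for each cell, and cells held at least 487 UMIs and at most 20.0% mitochondrial UMIs. The mitochondrial percent and a doublet score, deposited as a fraction, described the cells, and 0 cells carried a doublet call. Not used were the depth-corrected table and 50172 cells of 12 libraries that are not labelled samples.

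Counts were summed per mouse and type and tested with edgeR 4.0.16 in R 4.3.3 (TMM, filterByExpr, quasi-likelihood F test, mouse as a block because both types came from the same animals, Benjamini-Hochberg over 10081 genes), with SEs from the F statistic. The script was tested on simulated data. Named genes were, per side, the 15 of largest fold change with 100 CPM, the 10 of largest level difference, both with 1 direction in every mouse, up to 4 called members of each list, the markers of both types, and both genes of 24 pairs, of which 3 pairs, like a few other genes that stay in the list counts, are not reported here. Genes of the FGF and MAPK list were left out. The members and lists were chosen with earlier results of these data known. Alternatives were DESeq2 1.42.0, other scalings and filters, no block, thinning, doublet and depth limits, and leaving out each mouse. Promoters were credited to RefSeq, GRCm38.p6.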

Additional observations from a re-analysis of the deposited data

Results flagged for a closer look

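In 215 per-mouse sets of 4 differences, 7 held a mouse that stood apart from the other 3 by Dixon's criterion. Chance gives about 1 in 20, so 7 sets are no more than chance would give. Mouse 30 stood apart for Ubb (1.43, others 1.05 to 1.08), Igfbp4 (0.73, others 2.73 to 2.90), Cox7a1 (3.40, others 0.89 to 1.30) and the median of the water, potassium and gap junction genes (-1.43, others -1.67 to -1.63). Mouse 4 stood apart for Slc7a10 (-3.61, others -4.23 to -4.13) and Heyl (-2.47, others -3.76 to -3.70). Mouse 3 stood apart for the median of the immediate early genes (0.17, others 1.12 to 1.32). Values are log2 differences of tanycytes minus astrocytes in 1 mouse. In mouse 30 the astrocyte level of Igfbp4 was the highest of the 4 mice (10.0 CPM, others 1.81 to 2.57) and that of Cox7a1 the lowest (2.00 CPM, others 8.99 to 12.0).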

How the results depend on the processing

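The 2138 calls of the main test became 1370 when each sum was thinned to 499682 UMIs, with 559 of them higher in tanycytes, where 6577 genes were tested in place of 10081. Leaving out each mouse gave 1862 to 2423 calls, of which 840 to 1199 were higher in tanycytes and 996 to 1268 higher in astrocytes. Without the replicate block 2117 genes were called, and with DESeq2 2017. With no filter on low counts, where 15039 genes were tested, 2854 were called, and the side with more calls changed (1461 higher in tanycytes and 1393 in astrocytes). Without mitochondrial and ribosomal protein genes, an alternative chosen after seeing the data, 2115 were called. Of 176 named genes tested, 163 kept their direction and side of the thresholds in each of 14 alternatives that tested them. Igfbp5, which was not called, changed sign in cells of 1000 UMIs or more (-0.24), without the replicate block (-0.04), with the stricter filter (-0.01), after thinning (-0.07), without mouse 3 (-0.20) and without mouse 34 (-0.03), with -0.20 to 0.16 over the 4 fits that leave out a mouse. Slc16a1, not called either, changed sign after thinning (0.07) and without mouse 4 (0.04), with -0.17 to 0.04 over those fits. The cause was not tested. Without thinning, the shares of tanycytes with a UMI were 39.4% for Crym, 18.9% for Frzb, 44.7% for Gpr50, 13.9% for Pifo and 31.2% for Mia, and the shares of astrocytes were 10.3% for B3galt2, 15.5% for Atp13a4, 27.9% for Slc7a10, 9.97% for Dbx2 and 78.3% for Itih3, as more UMIs per cell were counted. Depth limits genes of few UMIs, such as Gjb2, Col1a1 and Scn7a (7, 4 and 8 UMIs in the lower type): their values were -4.01 without mouse 3, -5.12 without mouse 30 and 2.88 without mouse 4. The call of Rps9 was lost without mouse 34 (0.99) and that of Gstp1 without mouse 3 (1.0).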
